A study of Oryza sativa with 6 samples.

Results

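The auxin response genes of rice panicles were compared between wild-type Nipponbare plants and Nipponbare plants that overexpress OsEXPA7, an alpha-expansin. Expansins are proteins that loosen the plant cell wall. The genes belong to 2 families, the auxin response factors (ARF) and the Aux/IAA repressors. They were taken as whole families by locus identifier: 25 ARF loci, OsARF1 to OsARF25, and 31 Aux/IAA loci. Of these 56 loci, 55 were measured here among 42189 loci in all, and 1 Aux/IAA locus is not analysed here.

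Auxin acts by removing repressors. ARF proteins bind auxin response elements in promoters, and Aux/IAA proteins bind to the ARFs and recruit TOPLESS-type corepressors that keep the target genes off. Auxin joins Aux/IAA proteins to receptors of the TIR1/AFB type, F-box proteins that mark them for destruction, and many Aux/IAA genes are themselves induced by auxin, which closes a feedback loop. In the panicle, auxin is known for its part in the outgrowth of branches and spikelets and in the development of floral organs. The mRNA level of a repressor says nothing of how much of its protein is destroyed.

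Each genotype had 3 libraries of panicle RNA, described as biological replicates, and the treatment entry of every library reads natural. In the genotype field, wild-type libraries carry the entry EXPA7 and overexpression libraries the entry EXPA7_OE. The labels give neither the promoter that drives OsEXPA7, nor the number of transgenic lines, nor the panicle stage, nor whether replicates came from separate plants. The p-values below therefore measure the spread between libraries, which may be technical, and anything else that differed between the groups cannot be told apart from the genotype. Levels are TPM, a length-scaled share of all transcripts in a library. Its scale carries no sequencing depth, which is unknown, and no detection limit can be set.

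OsEXPA7 itself was examined first. Its locus, LOC_Os03g60720, measured 964, 959 and 882 TPM in the wild-type libraries and 5077, 4323 and 4946 TPM with overexpression, so that the mean was 5.11-fold higher and the groups lay far apart. The log2 change of 2.35 ± 0.06 (SE) passed the test (limma, adjusted p = 1.54e-08). All 12 panicle and floral organ markers were present, from 8.28 TPM up to the 291 TPM of the MADS-box gene OsMADS1. Their summed level ranged from 1157 to 1167 TPM in wild type and from 1278 to 1300.2 TPM with overexpression, and 5 of them rose and 1 fell, 50% called against 42.8% of all tested loci. The summed level of 7 tapetum and anther genes ranged from 2866 to 2921 TPM in wild type and from 1558 to 1663 TPM with overexpression. Of the 7, 2 rose and 3 fell, 28.6% and 42.9%, against 25.3% and 17.5% of all tested loci. Most of the difference in the sum was OsC6, a lipid transfer protein of the anther, which went from 1520.4 ± 49.1 to 261 ± 4.43 TPM (SD, n = 3). The 3 leaf photosynthesis loci summed to 80.6 to 92.2 TPM and 67.4 to 74.9 TPM, and they moved in both directions: 2 Rubisco small subunit loci fell, while Rubisco activase rose from 18.6 ± 0.521 to 27.7 ± 2.22 TPM (SD, n = 3). All 3 leaf loci were called, against 42.8% of all tested loci. The part that organ makeup or stage plays in the results below was not tested. In such bulk samples, fewer cells of a type and less RNA per cell cannot be told apart.

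All 25 ARF genes were expressed in the panicle and passed the filter on low values, over a range of about 2 orders of magnitude. OsARF7 (LOC_Os02g35140) was the most abundant at 131 ± 1.81 TPM in wild type and 131 ± 7.57 TPM with overexpression (SD, n = 3). OsARF23 and OsARF17 came next by mean over all libraries, and OsARF20 (LOC_Os07g08520) was the lowest, at 0.976 to 1.89 TPM. Averaged over all 6 libraries, 2 ARF genes exceeded 100 TPM, 9 lay between 50 and 100, 10 between 10 and 50 and 4 under 10 TPM. The level was thus spread over many members: the 3 most abundant ARFs held 25.4% ± 0.777 of the family's summed TPM in wild type and 27.3% ± 1.04 with overexpression (SD, n = 3), and these ranges overlapped.

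**Figure D1:**
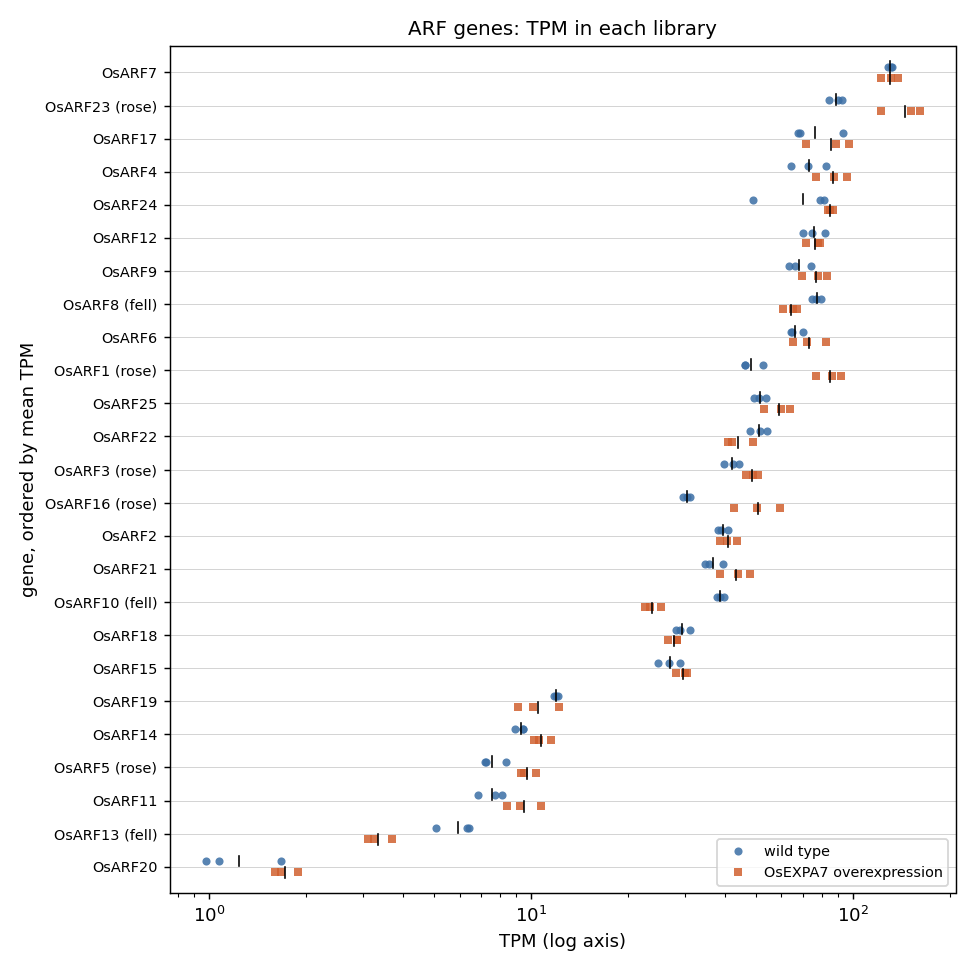
TPM (log axis) of the 25 ARF genes, ordered by mean level, in the 3 wild-type libraries (circles) and the 3 overexpression libraries (squares); the short vertical lines are group means, and "rose" or "fell" marks genes past the test. OsARF1, OsARF16 and OsARF23 have separated groups with overexpression to the right, and OsARF10 and OsARF13 with overexpression to the left, while OsARF7 at the top has the same mean of 131 TPM in both.

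With OsEXPA7 overexpression 5 ARF genes rose and 3 fell, while 17 did not pass the test. A gene was called when its adjusted p from limma, computed on log2(TPM + 1) and adjusted over all 23395 loci tested, was under 0.05. The 8 called ARFs are 32.0% of the family, against 42.8% of all tested loci, so a call as such did not set the ARFs apart. Of the 8, 5 changed at least 1.5-fold on that scale, 20% of the family against 14.2% of all tested loci, and none reached 2-fold, which 4.82% of all loci did. With median-of-ratios scaling 5 ARFs rose and 4 fell, and after quantile normalization 4 rose and 6 fell. Over all tested loci the share of calls that were higher was 59.1% as deposited, against 50.7% and 45.7% under those scalings. The ARF counts also depended on single overexpression libraries: 10 ARFs rose without replicate 1, and 3 rose and 5 fell without replicate 2.

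OsARF1 (LOC_Os01g13520) rose the most. It measured 46.2, 46.4 and 52.7 TPM in wild type and 77.0, 91.9 and 86.0 TPM with overexpression. Every overexpression library lay above every wild-type library, and the mean was 1.76-fold higher (log2 change 0.80 ± 0.08 SE, limma adjusted p = 6.76e-05). OsARF16 (LOC_Os06g09660), an activator known from auxin and phosphate responses of rice roots, measured 30.5, 29.7 and 31.2 TPM in wild type and 42.7, 59.5 and 50.5 TPM with overexpression. Its wild-type libraries were tightly grouped and its overexpression libraries widely spread, without overlap (1.67-fold, log2 change 0.71 ± 0.11 SE, limma adjusted p = 0.000742).

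OsARF23 (LOC_Os11g32110), known to act on the actin regulator RMD, was the second most abundant ARF and had the largest gain in TPM. It measured 84.4, 89.6 and 92.7 TPM in wild type and 123, 162 and 152 TPM with overexpression. The groups were clearly apart, and the mean was 1.63-fold higher (log2 change 0.69 ± 0.09 SE, limma adjusted p = 0.00043). With its gain OsARF23 passed OsARF7: it lay above OsARF7 in overexpression replicates 2 and 3, and level with it in replicate 1, whereas OsARF7 was higher in each wild-type library.

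The other rises were small. OsARF5 (LOC_Os02g04810), a low-level activator-type ARF, measured 7.17, 7.24 and 8.37 TPM in wild type and 9.53, 10.4 and 9.31 TPM with overexpression (log2 change 0.32 ± 0.09 SE, limma adjusted p = 0.0215). OsARF3 (LOC_Os01g54990) measured 39.8, 42.3 and 44.1 TPM in wild type and 46.7, 50.7 and 48.8 TPM with overexpression (log2 change 0.21 ± 0.06 SE, limma adjusted p = 0.026). Neither gene's groups overlapped, but these calls were the least secure. OsARF5 missed the threshold without wild-type replicate 1 (limma adjusted p = 0.0755), wild-type replicate 2 (0.0734) or overexpression replicate 2 (0.0652). OsARF3 missed it without either of those wild-type replicates (0.0984 and 0.066), without overexpression replicate 2 (0.0703) or 3 (0.0749), and after quantile normalization (0.14).

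Of the 3 ARFs that fell, OsARF10 (LOC_Os04g43910) had the largest fall on the log2(TPM + 1) scale. It measured 39.7, 38.6 and 37.8 TPM in wild type and 22.6, 23.5 and 25.3 TPM with overexpression. The 2 groups were far apart relative to their spread, with the overexpression mean at 0.614 of the wild-type mean (log2 change -0.68 ± 0.07 SE, limma adjusted p = 5.15e-05). OsARF13 (LOC_Os04g59430), a low-level gene, went from 6.40, 6.33 and 5.06 TPM to 3.11, 3.71 and 3.24 TPM (log2 change -0.67 ± 0.12 SE, limma adjusted p = 0.00182). By group means OsARF13 fell further than OsARF10, to 0.565 of wild type. With a pseudocount of 0.1 its log2 change was -0.80, against -0.70 for OsARF10. OsARF8 (LOC_Os02g41800) went from 76.9, 79.9 and 74.8 TPM to 65.2, 60.9 and 67.2 TPM, a smaller fall without overlap (log2 change -0.26 ± 0.06 SE, limma adjusted p = 0.0063).

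Rice ARFs fall into types that differ in what they do to their targets. A glutamine-rich middle region marks the activators, which are OsARF5, 6, 11, 12, 16, 17, 19, 21 and 25, and the other 16 are mostly held to be repressors. Among the 9 activators, OsARF5 and OsARF16 rose and none fell, and the 22.2% that rose was near the 25.3% of all tested loci. That count was 5 without overexpression replicate 1, and 1 activator fell after quantile normalization or without overexpression replicate 2. Among the other 16, OsARF1, OsARF3 and OsARF23 rose and OsARF8, OsARF10 and OsARF13 fell, 18.8% in each direction against 25.3% and 17.5% of all tested loci. The activators' share of all ARF transcripts was 29.8% to 33.3% in wild type and 30.97% to 32.7% with overexpression, so the overexpression range lay within that of wild type.

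Several activators had estimates above 0 without passing the test. OsARF11 (LOC_Os04g56850), the rice counterpart of MONOPTEROS in Arabidopsis, had wild-type values from 6.85 to 8.11 TPM and overexpression values from 8.44 to 10.8 TPM, without overlap (limma adjusted p = 0.0599). OsARF21 (LOC_Os08g40900) missed narrowly, at 34.8 to 39.5 TPM and 38.8 to 47.8 TPM, with a slight overlap (limma adjusted p = 0.0528). OsARF19 (LOC_Os06g48950), known for its part in leaf angle, was the 1 activator with an estimate below 0, at 11.8 to 12.2 TPM and 9.11 to 12.2 TPM (limma adjusted p = 0.196). These members, and every other member named here that did not pass the test and is not among the 3 most abundant of its family, were chosen after their values were seen. For OsARF7 the 95% interval of the log2 change ran from -0.12 to 0.12.

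Small RNAs restrain 3 groups of ARF transcripts, and these groups were followed separately. MicroRNA miR160 targets OsARF8, 10, 18 and 22, miR167 targets OsARF6, 12, 17 and 25, and the trans-acting tasiR-ARF targets the ETTIN-type genes OsARF2, 3, 14 and 15. All 4 miR160-type genes had lower means with overexpression, and 2 of them, OsARF8 and OsARF10, fell past the test, against 17.5% of all tested loci. OsARF22 (LOC_Os10g33940) measured 47.8, 51.5 and 54.3 TPM in wild type and 41.0, 49.0 and 42.1 TPM with overexpression, and overexpression replicate 2 overlapped with wild type (limma adjusted p = 0.0591). OsARF18 (LOC_Os06g47150) moved least, from 29.4 ± 1.53 to 27.9 ± 1.12 TPM (SD, n = 3), with overlap.

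The summed level of the 4 miR160-type genes was 192.5, 199 and 198 TPM in wild type and 155, 162 and 163 TPM with overexpression, lower in each overexpression library. It is the only one of the 3 groups whose summed mean was lower. The fall of 18.5% came mostly from OsARF10 and OsARF8. After median-of-ratios scaling 3 of the 4 fell past the test, and after quantile normalization all 4 did, but these scalings also raised the lower calls over all 23395 loci from 4091 to 4975 and 5467. None of the 4 miR167-type genes passed, where 42.8% of all tested loci were called. Their summed level overlapped between the genotypes, at 254 to 298 TPM and 268 to 323 TPM. Of the 4 tasiR-ARF-type genes only OsARF3 passed, so that 25% rose, against 25.3% of all tested loci. The summed level of these 4 ranged from 113 to 124 TPM in wild type and from 124 to 136 TPM with overexpression, just without overlap. The small RNAs themselves are not measured by messenger RNA libraries of this kind.

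**Figure D2:**
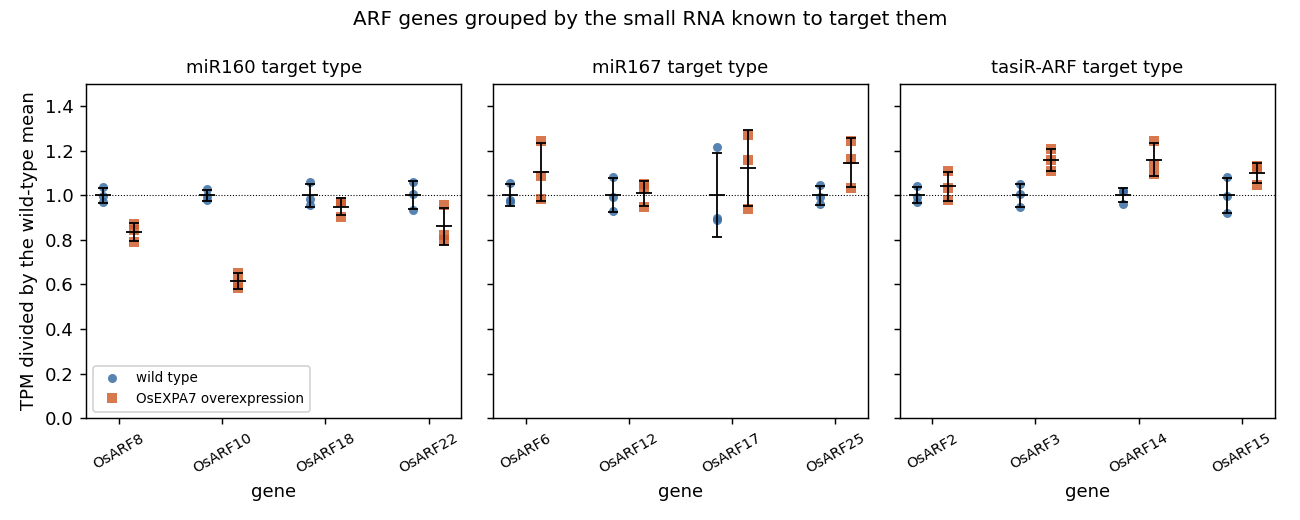
TPM divided by the wild-type mean (linear axis from 0) for the 12 ARF genes of the 3 small RNA target types, in wild-type (circles) and overexpression libraries (squares); black bars are the mean ± SD of 3 libraries. With overexpression, OsARF10 and OsARF8 lie below 1 without overlap, and OsARF18 and OsARF22 lie below 1 on average. The overexpression means of the miR167 and tasiR-ARF types lie at or above 1, with some single libraries below it.

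The ARF family as a whole was slightly higher with overexpression. Its summed level was 1131, 1166 and 1195 TPM in wild type and 1215, 1415 and 1340.0 TPM with overexpression, a 13.6% higher mean. The groups did not overlap, but the gap was narrow beside the spread of the overexpression libraries. The median log2 change of the 25 genes was 0.17, against 0.06 for all tested loci, and 72.0% of the ARFs had an estimate above 0, against 57.0% of all tested loci. With median-of-ratios scaling the summed level was 9.15% higher and the medians were 0.12 and 0.00, and after quantile normalization they were 7.87% and 0.10 against -0.02.

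The ARFs also varied together between libraries of 1 genotype. Among the overexpression libraries, replicate 2 was the highest for 20 of the 25 ARFs and replicate 1 the lowest for 20. Over all tested loci, replicate 2 was the highest for 47.5% and replicate 1 the lowest for 43.8%. In wild type, replicate 3 was the highest for 17 of the 25, against 49.1% of all loci. OsARF24 (LOC_Os12g29520) was an exception, with wild-type replicate 3 at 49.0 TPM, under the 81.6 and 79.1 TPM of the other wild-type libraries and the 83.6 to 86.8 TPM with overexpression.

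The Aux/IAA genes were more unequal than the ARFs and reached far higher levels. OsIAA17 (LOC_Os05g14180) measured 1057, 1076 and 1169 TPM in wild type and 1075, 1097 and 1101 TPM with overexpression. It alone held 36.9% ± 0.629 of the family's summed TPM in wild type and 36.2% ± 0.392 with overexpression (SD, n = 3). OsIAA21 (LOC_Os06g22870) and OsIAA30 (LOC_Os12g40890) followed, with means over all libraries of 481 and 279 TPM. These 3 genes together held 62.1% ± 0.332 and 61.7% ± 0.266 of the family (SD, n = 3).

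At the other end, 7 of the 30 measured Aux/IAA genes did not pass the filter of 1 TPM in at least 3 libraries and were not tested. These were OsIAA9, 11, 20, 22, 26, 28 and 29, whose highest value in any library was 1.06 TPM. OsIAA28 and OsIAA29 were listed at 0 in all 6 libraries, which in a table without depth can also be a failed estimate. Both follow OsIAA27 directly on chromosome 11, and OsIAA27 was present at 32.6 to 42.4 TPM. OsIAA20 (LOC_Os06g07040) had higher values in each overexpression library (0.496, 0.502 and 0.706 TPM) than in any wild-type library (0.441, 0.373 and 0.278 TPM), at a level too low for a test.

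**Figure D3:**
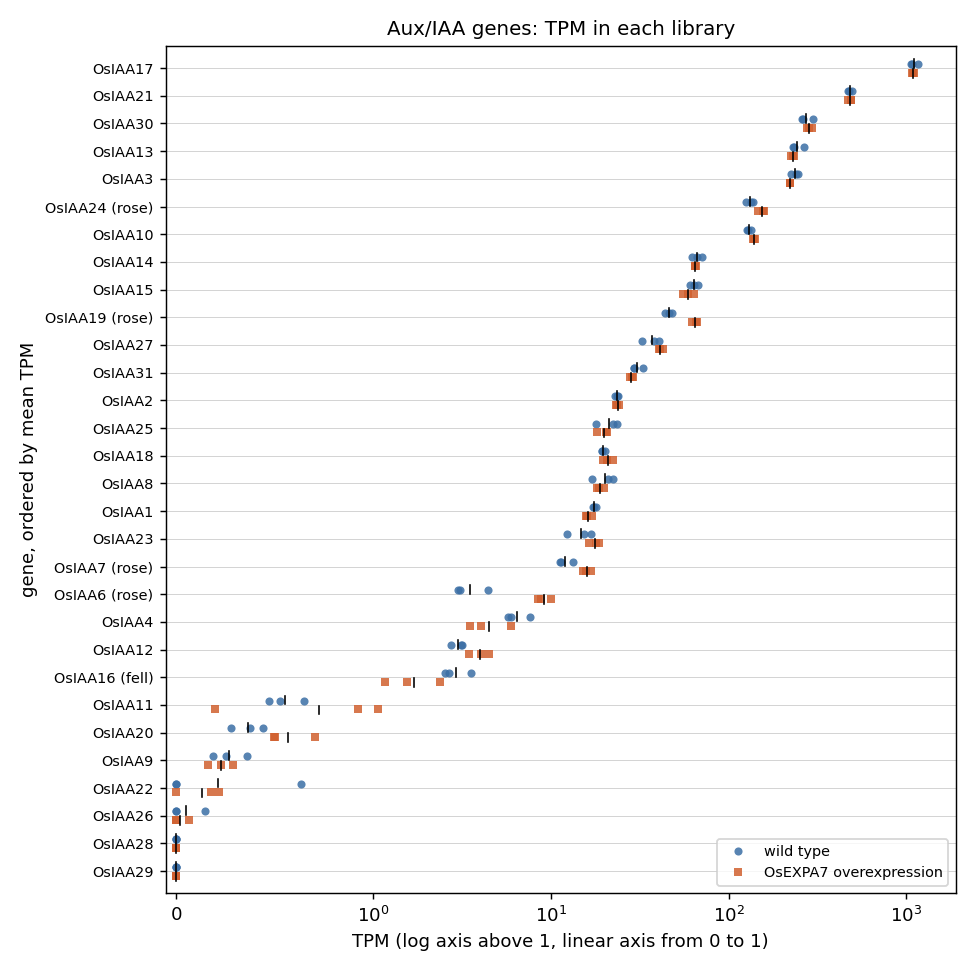
TPM of the 30 measured Aux/IAA genes, ordered by mean level (log axis above 1 TPM, linear from 0 to 1), in the 3 wild-type libraries (circles) and the 3 overexpression libraries (squares); short vertical lines are group means. The abundant genes from OsIAA17 down to OsIAA3 overlap or nearly touch, while OsIAA6 and OsIAA19 lie to the right with overexpression.

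Of the 23 Aux/IAA genes tested, 4 rose, 1 fell and 18 did not pass. The 5 calls are 21.7% of the tested genes, against 42.8% of all tested loci, and 1 of them, OsIAA6, changed at least 1.5-fold on the log2(TPM + 1) scale, against 14.2%. By the ratio of group means, OsIAA16 also did, at 1.73-fold lower. The number that rose was 3 to 5 in all 13 alternative settings. The number that fell was 0 without wild-type replicate 1, without wild-type replicate 3 or without overexpression replicate 1. It was also 0 without the filter or with a filter at 5 TPM, and 4 with either of the other 2 scalings.

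OsIAA6 (LOC_Os01g53880), known from work on drought tolerance and tiller outgrowth, had the largest change of either family. It measured 4.44, 3.01 and 3.07 TPM in wild type and 8.81, 10.003 and 8.47 TPM with overexpression. The lowest overexpression library was nearly double the highest wild-type library, and the mean was 2.59-fold higher (log2 change 1.17 ± 0.14 SE, limma adjusted p = 0.000164). It remained a minor transcript, far under OsIAA17.

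OsIAA19 (LOC_Os05g48590) rose from 43.6, 46.3 and 47.9 TPM to 61.9, 65.8 and 66.3 TPM. The groups were well separated, and the mean was 1.41-fold higher (log2 change 0.48 ± 0.06 SE, limma adjusted p = 0.000231). OsIAA7 (LOC_Os02g13520) rose from 11.4, 11.2 and 13.3 TPM to 16.7, 15.1 and 15.6 TPM, also without overlap (log2 change 0.38 ± 0.09 SE, limma adjusted p = 0.00801). OsIAA24 (LOC_Os07g08460) was the only called gene among the 7 Aux/IAA genes above 100 TPM on average, going from 133, 136 and 125 TPM to 159, 147 and 155 TPM (log2 change 0.22 ± 0.05 SE, limma adjusted p = 0.0093). With median-of-ratios scaling it missed the threshold (limma adjusted p = 0.0909).

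OsIAA16 (LOC_Os05g09480) was the gene that fell. It measured 2.68, 2.53 and 3.54 TPM in wild type and 1.54, 1.16 and 2.36 TPM with overexpression. The groups came close to each other, and the log2 change was -0.56 ± 0.18 (SE, limma adjusted p = 0.0323). The call was lost without wild-type replicate 1 or 3 (limma adjusted p = 0.0575 and 0.101), without overexpression replicate 1 or 2 (0.0742 and 0.0991), and without the filter on low values (0.0682). Its level was near 1 TPM in overexpression replicate 2, where the log2(TPM + 1) scale understates a change.

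The abundant Aux/IAA genes moved little. The 95% interval of the log2 change was -0.11 to 0.09 for OsIAA17, -0.09 to 0.10 for OsIAA21 and -0.08 to 0.20 for OsIAA30, each of which overlapped between the genotypes. OsIAA13 (LOC_Os03g53150), known from a dominant mutant with few lateral roots, was at 243 ± 19.2 and 229 ± 4.27 TPM (SD, n = 3), with overlap. OsIAA3 (LOC_Os01g13030) measured 225, 239 and 246 TPM in wild type and 221, 221 and 223 TPM with overexpression, lower without overlap but by little (limma adjusted p = 0.119). OsIAA10 (LOC_Os02g57250) was the opposite case, at 127, 129 and 133 TPM and 138, 139 and 141 TPM (limma adjusted p = 0.0925).

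The neighbouring genes OsIAA30 and OsIAA31 (LOC_Os12g40900) on chromosome 12 differed widely in level, at 259 to 299 TPM and 27.9 to 33.1 TPM over all libraries, and neither passed the test. Of the neighbours OsIAA11 and OsIAA12 (LOC_Os03g43410) on chromosome 3, the first was under the filter and the second had wild-type values from 2.72 to 3.14 TPM and overexpression values from 3.46 to 4.49 TPM, without overlap (limma adjusted p = 0.0519). How reads shared between similar neighbours were counted is not stated in any source used here, which leaves the split between such genes uncertain.

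As a family, the Aux/IAA genes summed to 2888, 2955 and 3111 TPM in wild type and 3006, 3008 and 3022 TPM with overexpression. The overexpression libraries lay within the wild-type range, and the 0.922% difference of the means became -2.91% when scaled by median of ratios and 4.39% when quantile normalized. For the 23 tested Aux/IAA genes the median log2 change was 0.01, against 0.06 for all tested loci, with 12 estimates above 0 and 11 below; with the same scalings it was -0.05 and -0.03. The ratio of summed Aux/IAA to summed ARF level was 2.55, 2.53 and 2.60 in wild type and 2.47, 2.13 and 2.26 with overexpression, without overlap. The summed ARF level differed without overlap and the summed Aux/IAA level did not. Whether the 2 families differ in their response was not tested.

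**Figure D4:**
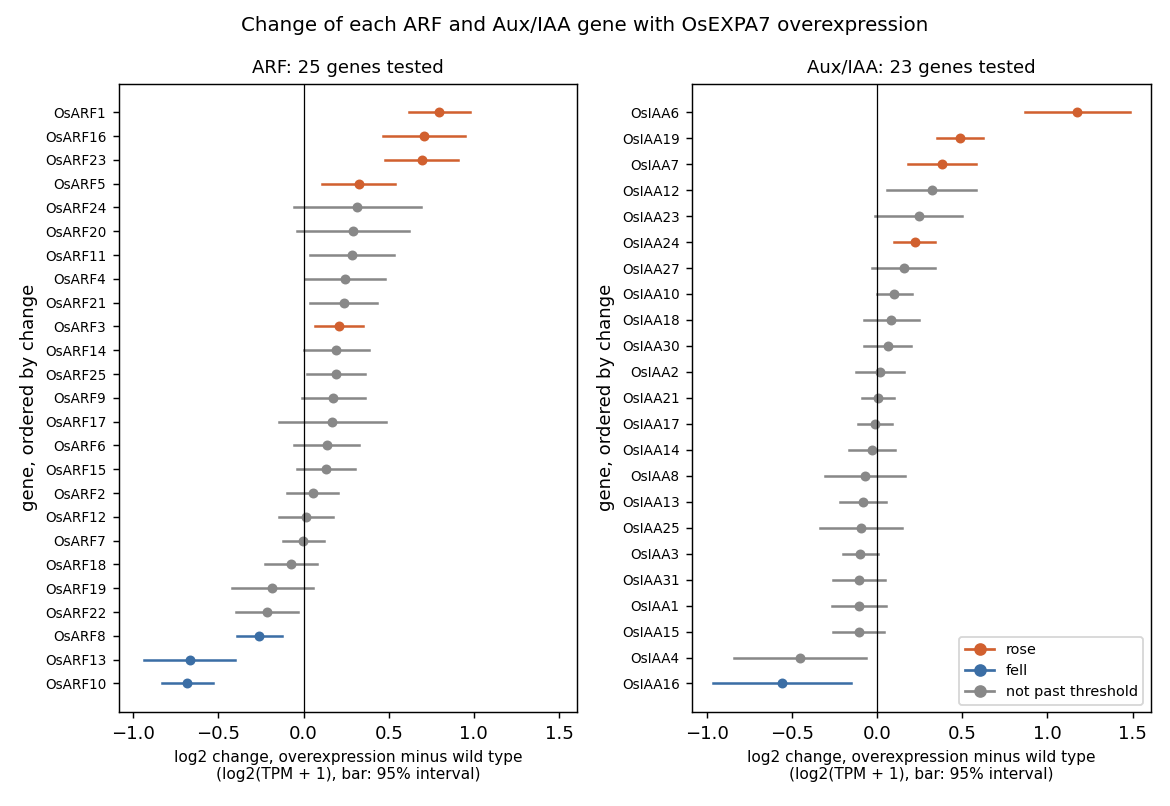
Log2 change (overexpression minus wild type, on log2(TPM + 1)) of the 25 ARF and 23 Aux/IAA genes tested, ordered by size, with 95% intervals from the limma fit on 3 libraries per group; colour marks genes that rose, fell or did not pass the test. OsIAA6 stands highest at 1.17, the ARFs span -0.68 to 0.80, and most Aux/IAA intervals cover 0.

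Groups without overlap were found for 11 of the 25 ARFs and 10 of the 23 tested Aux/IAA genes, against 53.7% of all tested loci. Of these, 8 ARFs and 6 Aux/IAA genes were higher with overexpression, against 31.3% of all loci, and 3 and 4 were lower, against 22.5%.

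Other parts of the auxin pathway were read from 25 loci for receptors, synthesis, conjugation and corepression, of which 19 passed the filter. Among these 6 rose and 4 fell, 31.6% and 21.1%, against 25.3% and 17.5% of all tested loci. Of the 5 TIR1/AFB receptor loci, LOC_Os04g32460 rose from 129, 126 and 137 TPM to 141, 167 and 155 TPM (log2 change 0.24 ± 0.07 SE, limma adjusted p = 0.0203), and LOC_Os11g31620 rose from 18.4, 16.3 and 18.98 TPM to 21.9, 23.04 and 22.2 TPM (log2 change 0.31 ± 0.08 SE, limma adjusted p = 0.0107). The first call was lost without the variance trend, and without wild-type replicate 1 or 2 or overexpression replicate 2 or 3, where its limma adjusted p reached 0.0711. The other 3 receptor loci overlapped between the genotypes.

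Of the 3 TOPLESS-type corepressor loci, which Aux/IAA proteins recruit, 2 rose, against 25.3% of all tested loci. LOC_Os03g14980 rose from 84.3, 84.8 and 92.4 TPM to 106, 126 and 119 TPM (log2 change 0.42 ± 0.07 SE, limma adjusted p = 0.00163). LOC_Os01g15020 rose from 29.2, 20.5 and 33.1 TPM to 35.9, 42.6 and 40.4 TPM (log2 change 0.53 ± 0.15 SE, limma adjusted p = 0.0211), a call that was lost without the filter and without overexpression replicate 2 or 3. In these loci, as in most ARFs, replicate 2 was the highest overexpression library and replicate 1 the lowest.

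Of the 12 loci for auxin synthesis 8 were tested, and 3 fell while none rose, against 17.5% and 25.3% of all tested loci. Without wild-type replicate 3, 1 synthesis locus rose. LOC_Os01g07500, a tryptophan aminotransferase of the TAA type, fell from 45.7, 39.1 and 40.1 TPM to 25.9, 26.9 and 28.7 TPM, far outside the spread of either group (log2 change -0.60 ± 0.08 SE, limma adjusted p = 0.000297). The YUCCA-type flavin monooxygenases LOC_Os01g53200 and LOC_Os04g03980, which carry out the next step, fell from 9.55 ± 0.296 to 7.46 ± 0.357 TPM and from 4.15 ± 0.0343 to 2.84 ± 0.327 TPM (SD, n = 3; limma adjusted p = 0.0134 and 0.0113). The call of LOC_Os01g53200 was lost without overexpression replicate 3 (limma adjusted p = 0.0577).

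GH3 enzymes conjugate auxin to amino acids, and several GH3 genes are known as early auxin-induced genes. All 3 tested GH3 loci changed, 2 rising and 1 falling, where 42.8% of all tested loci were called. OsGH3-8 (LOC_Os07g40290), known in rice flowers as a gene under the control of OsMADS1, went from 1.30, 1.27 and 0.974 TPM to 7.10, 7.02 and 7.15 TPM. This was the largest change among all auxin genes examined here, with an overexpression spread of only 0.0663 TPM (SD, n = 3; log2 change 1.89 ± 0.11 SE, limma adjusted p = 1.84e-06). OsMADS1 itself measured 284 ± 5.95 and 284 ± 5.62 TPM (SD, n = 3). Whether OsMADS1 has a part in the change of OsGH3-8 was not tested.

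OsGH3-1 (LOC_Os01g57610) rose from 3.11, 3.33 and 3.61 TPM to 5.49, 5.66 and 5.62 TPM (log2 change 0.60 ± 0.10 SE, limma adjusted p = 0.00112). OsGH3-4 (LOC_Os05g42150), the most abundant of the 3, fell from 42.3, 42.5 and 42.1 TPM to 25.4, 24.998 and 26.1 TPM (log2 change -0.71 ± 0.06 SE, limma adjusted p = 1.53e-05). Because OsGH3-4 outweighs the others, the summed GH3 level was lower with overexpression, at 38.3 to 39.6 TPM against 46.8 to 47.3 TPM in wild type, although 2 of the 3 tested genes rose. The sum includes 2 loci under the filter. OsGH3-2 (LOC_Os01g55940) measured 0.282, 0.204 and 0.153 TPM in wild type and 0.573, 0.658 and 0.787 TPM with overexpression. OsGH3-13 (LOC_Os11g32520) was listed at 0 in all 6 libraries. Without the filter, 3 GH3 loci rose and 1 fell.

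**Figure D5:**
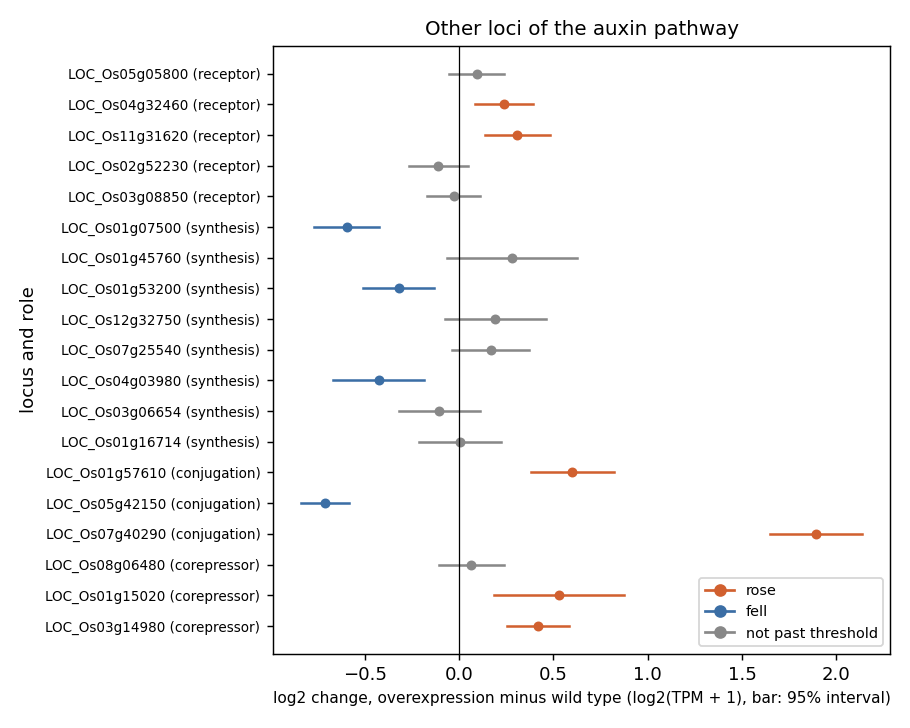
Log2 change (overexpression minus wild type, on log2(TPM + 1)) of the 19 tested loci of auxin perception, synthesis, conjugation and corepression, with 95% intervals from the limma fit on 3 libraries per group. The 3 conjugation (GH3) loci lie at 0.60, -0.71 and 1.89, and the 3 synthesis loci that fell lie between -0.60 and -0.32.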

How the data were processed

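The authors deposited 1 table of TPM for 42189 loci in 6 libraries, and each column sums to the same total. No source used here states the aligner, quantifier or annotation. Among builds, the submitters' processing notes list GRCm38 and mm10, those of mouse, whereas the identifiers have the LOC_Os form of rice. Libraries were grouped by title.

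Values were analysed as log2(TPM + 1) for 23395 loci that reached 1 TPM in 3 or more libraries. The genotype contrast was fitted by limma 3.58.1 (R 4.3.3; empirical Bayes with variance trend, two-sided, Benjamini-Hochberg adjustment over all loci tested, threshold 0.05). The fit was also run on simulated data with independent noise and 200 changed loci, far fewer than were called here. That setting differs from these data and does not gauge the calls above. Library correlations were 0.991 to 0.993 within and 0.948 to 0.953 between genotypes. SDs are over 3 libraries.

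The table pairs no locus with a name. OsARF numbers follow the locus list, and OsIAA numbers, OsEXPA7, markers, roles and other auxin loci were paired from general knowledge of published rice numbering. The RefSeq gene table (ASM3414082v1) lists a gene of that name on the identifier's chromosome for 23 of 25 ARFs and 27 of 30 Aux/IAA genes, for 4 of 5 GH3 and 2 of 12 synthesis loci, 2 of 3 corepressors and none of the 5 receptors. Older numbering exists: OsARF23 is also listed as OsARF1. Members and lists were chosen with earlier results of these data known.

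Genes were named by rule: in each family up to 7 with the largest rise, up to 7 with the largest fall past the threshold, and the 3 most abundant. Alternatives were a pseudocount of 0.1, no filter, a 5 TPM filter, median-of-ratios scaling, quantile normalization, no variance trend, the replicate block and leaving out each library.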

Additional observations from a re-analysis of the deposited data

How the results depend on the processing

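Of the called genes, 6 of 8 ARFs and 3 of 5 Aux/IAA genes stayed past the threshold under all 13 alternatives, and OsEXPA7 did too, with log2 changes from 2.29 to 2.64. OsARF13 met the 5 TPM filter only through its wild-type libraries, and OsIAA6 only through its overexpression libraries. For these genes the 5 TPM setting therefore adds no support. Of the uncalled genes, 9 of 17 ARFs and 5 of 18 Aux/IAA genes passed under some alternative. Scaling moved the balance of directions: of all called loci, 59.1% were higher on deposited values, 50.7% under median-of-ratios scaling, and 45.7% under quantile normalization. ARFs that fell numbered 6 instead of 3 after quantile normalization. Aux/IAA genes that fell numbered 4 instead of 1 with either scaling, and 0 without the filter or with the 5 TPM filter, which left out OsIAA16. The Aux/IAA median log2 change of 0.005 became -0.0034 without the filter, -0.0517 when scaled by median of ratios and -0.0284 when quantile normalized, and the change of the summed level, 0.922%, became -2.91% and 4.39% with these scalings. Leaving out 1 library gave 3 to 10 rising and 3 to 5 falling ARFs, 0 to 1 falling Aux/IAA genes, Aux/IAA medians from -0.0112 to 0.0232 and summed changes from -0.681% to 3.10%. Among the 18 named genes, signs turned for 3 abundant uncalled genes near 0: OsARF7 (-0.0391 to 0.0437 on leaving out 1 library), OsIAA17 (-0.0406 to 0.0324, and 0.1384 after quantile normalization) and OsIAA21 (-0.0112 to 0.0287, and -0.0517 with median-of-ratios scaling). The cause was not tested. Same-numbered libraries deviated from their group means with correlations of 0.097, -0.0989 and -0.0685, so the numbers were not taken to pair them; with the replicate block 6 ARFs rose and 3 fell, 4 Aux/IAA genes rose and 1 fell, and over all loci 5513 rose and 3751 fell. TPM keeps no depth, which limits what can be said of genes near 0.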
